A study of Rattus norvegicus with 6 samples.

Results

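The 31 genes described here encode the lysosome and autophagy system of the cell: MiT transcription factors, folliculin partners, autophagy machinery, lysosomal membrane proteins, hydrolases and subunits of the proton pump. They were taken from the table by symbol, and all 31 were found among the 21857 rows of the deposited count table. The RNA came from cultured mesenchymal stem cells of Sprague Dawley rat fat. In 3 libraries the cells had received 3.432 mM branched chain amino acids (BCAA) for 12 h, and in 3 others vehicle for 12 h. The medium of both groups was made without BCAA and held 10% serum, and both groups were exposed to 100 µM hydrogen peroxide, an oxidant, so no library shows these cells without it. The sources used here do not give the BCAA mixture, the vehicle, or whether replicates were separate animals or cultures; p-values thus reflect only the scatter of these libraries, which may be technical.

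Lysosomes are acid compartments that digest proteins, lipids and sugars, and autophagy delivers the cell's own material to them inside double-membraned vesicles. The MiT factors TFEB, TFE3 and MITF switch on many genes of both systems through a DNA motif built around CACGTG, called CLEAR. When amino acids are plentiful, leucine among them, Rag GTPases recruit the kinase complex mTORC1 to the lysosome, where it phosphorylates TFEB and TFE3 and keeps them in the cytoplasm, and folliculin with its partners FNIP1 and FNIP2 acts on RagC and RagD in this step. Neither protein location nor phosphorylation was measured, only transcripts.

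CLEAR is built around CACGTG, and the promoter stretches that carry this core in these genes are shown first. The core alone does not show that a gene is a target of the MiT factors. Promoters from 250 bases before to 50 bases after the start site were taken from RefSeq (build GRCr8) and matched for 25 of the 31 genes; Atg9a, Atp6v1h, Becn1, Ctsb, Hexa and Psap are named only. The core CACGTG reads the same on both strands and was found in 7 of the 25 promoters (28.0%), against 6.42% of all 33469 promoters of that length. In a wider list of lysosome and autophagy genes, described below, it was in 23 of 111 promoters (20.7%). The 31 genes were listed in part as TFEB targets. A share above that of all promoters may thus follow from their choice, and it was not tested. All promoters were also counted without a filter on expression, whereas all 31 genes passed a filter on low counts. Longer forms that contain the core were searched on both strands: TCACGTG was in 6 (24.0%), against 3.2% of all promoters, and GTCACGTG in 5, against 1.85%. The core with GT before it and AC after it was in 0 of the 25, in 5.41% of the 111 and in 0.233% of all promoters. The related sequence TCATGTG was in 2 of the 25 (8.0%), against 3.56%. The windows below run 5′ to 3′ on the strand of the gene and end no later than the start site. Capitals mark the core with those neighbouring bases that extend it towards GT before and AC after.
Fnip1, chr10:39068359-39068404, + strand: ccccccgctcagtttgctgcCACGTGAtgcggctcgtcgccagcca
Lamp1, chr16:83075076-83075266, - strand: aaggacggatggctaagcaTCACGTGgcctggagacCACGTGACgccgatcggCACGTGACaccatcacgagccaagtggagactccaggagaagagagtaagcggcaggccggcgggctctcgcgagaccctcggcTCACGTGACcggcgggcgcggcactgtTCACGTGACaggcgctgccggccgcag
Mcoln1, chr12:6358216-6358257, + strand: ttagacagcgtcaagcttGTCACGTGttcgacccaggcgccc
Ctsd, chr1:206968822-206968998, - strand: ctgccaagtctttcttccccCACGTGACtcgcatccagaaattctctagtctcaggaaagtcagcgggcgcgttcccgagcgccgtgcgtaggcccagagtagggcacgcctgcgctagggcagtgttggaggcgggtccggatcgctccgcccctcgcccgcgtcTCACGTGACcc
Gaa, chr10:105028268-105028313, + strand: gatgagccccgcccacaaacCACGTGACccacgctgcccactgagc
Atp6v0d1, chr19:50357275-50357320, - strand: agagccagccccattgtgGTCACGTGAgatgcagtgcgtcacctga
Atg5, chr20:49380796-49380834, + strand: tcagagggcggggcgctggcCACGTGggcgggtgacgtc

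Lamp1 carried 5 copies of the core, and Ctsd and Mcoln1 carried 2 each, the second of Mcoln1 lying just after the start site and outside the window. The median log2 fold change, BCAA minus vehicle, was 0.005 over the 7 genes with the core and -0.046 over the 18 without it. These matches describe sequence only, and binding was not measured.

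Sequencing depth was 12725344 to 15739731 counts per library. Vehicle replicate 1 stood apart from the other 5 libraries on the first principal component, and it was the highest (12 genes) or the lowest (10 genes) of the 6 libraries for 22 of the 31 genes (71.0%), against 48.4% of all genes tested. Levels below are read counts scaled to library size, in CPM, and ± gives the SD over 3 libraries. The 7 stromal markers summed to 5047 to 5149 CPM in BCAA libraries, against 4794 to 5213 CPM in vehicle libraries, and the 4 adipocyte markers together stayed under 1 CPM. The 5 osteoclast markers summed to 15.3 to 17.0 CPM in BCAA libraries, against 15.3 to 17.5 CPM in vehicle libraries, most of it Nfatc1, a factor that other cells also express; Dcstamp was at 0 in every library. Ocstamp, another osteoclast gene, was at 0.81, 0.95 and 0.47 CPM in BCAA libraries, against 1.72, 1.97 and 1.25 CPM in vehicle libraries, without overlap (log2 fold change -1.13, SE 0.37; edgeR adjusted p = 0.25). It rested on only 6 to 31 reads per library. Oscar, a further osteoclast gene, went the other way. It was at 1.35, 2.09 and 2.11 CPM in BCAA libraries, against 0.79, 1.14 and 1.88 CPM in vehicle libraries. Its groups overlapped (log2 fold change 0.55, SE 0.36, edgeR adjusted p = 0.59). The 4 markers of smooth muscle cells and pericytes summed to 50.2 to 57.1 CPM in BCAA libraries, against 73.0 to 76.2 CPM in vehicle libraries. Among them Acta2, smooth muscle actin, averaged 19.8 ± 0.707 CPM in BCAA libraries, against 36.0 ± 0.884 CPM in vehicle libraries (log2 fold change -0.86, SE 0.09; edgeR adjusted p = 0.00059); it fell with BCAA and was the 1 marker called. Myh11, smooth muscle myosin, was also lower in every BCAA library. It was at 28.1, 27.1 and 25.1 CPM in BCAA libraries, against 31.4, 31.8 and 30.7 CPM in vehicle libraries (log2 fold change -0.23, SE 0.09, edgeR adjusted p = 0.35). Cspg4, another of these markers, averaged 7.18 ± 1.63 CPM in BCAA libraries, against 7.55 ± 0.387 CPM in vehicle libraries. Its groups overlapped (log2 fold change -0.072, SE 0.175, edgeR adjusted p = 0.91). Rgs5 had at most 2 reads in any library and was not tested. The lower sum of these markers thus came mainly from Acta2. Macrophages are rich in lysosomes, and their markers were present: Cd68, a gene of their lysosomes, was at 28.5, 30.6 and 35.0 CPM in BCAA libraries, against 30.9, 29.0 and 28.9 CPM in vehicle libraries. The sum of 8 macrophage markers was 808 to 864 CPM in BCAA libraries, against 864 to 1031 CPM in vehicle libraries. Most of it was Lyz2, lysozyme, at 593, 629.6 and 643 CPM in BCAA libraries, against 811, 679.6 and 651 CPM in vehicle libraries; the other 7 summed to 215 to 222 CPM in BCAA libraries, against 212 to 222 CPM in vehicle libraries. The part of these cell types in the levels below was not tested, and in bulk samples fewer cells of a type and less RNA per cell cannot be told apart.

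None of the 31 genes passed the threshold, an adjusted p of 0.05 over all 12298 genes tested (edgeR's quasi-likelihood test with Benjamini-Hochberg adjustment), which 0.228% of all genes passed. All 31 passed the filter on low counts. DESeq2 also called 0 of them, and 1.59% of all genes with an adjusted p. At an unadjusted p under 0.05 there were 6 of 31 (19.4%) with edgeR, 4 higher and 2 lower with BCAA, and 6 with DESeq2; over all genes this share was 11.8% with edgeR, made up of 5.95% higher and 5.84% lower, and 6.77% of the 16570 genes fitted with DESeq2. The DESeq2 fit had no filter on low counts, so its 6.77% includes genes with few reads that the edgeR share leaves out. The 6 genes with edgeR are Fnip1, Fnip2, Sqstm1 and Atp6v1a (higher) and Gabarap and Ctsk (lower). In 9 of 31 genes (29.0%) the groups did not overlap, against 18.1% of all genes. BCAA lay higher in 4 of them (all genes 9.29%) and lower in 5 (all genes 8.76%).

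The edgeR fit called 0 of the 31 genes under every other setting but 1. The share of all genes called was 0.26% with RLE scaling, 0.236% without scaling factors, 0.748% without the filter, 0.227% with a filter of 1 CPM, 0.228% without robust estimation and 0.0488% with the replicate number as a block. It was 0.0564%, 0.0643% and 0.0642% without BCAA replicate 1, 2 or 3, and 0.0803% and 0.0964% without vehicle replicate 2 or 3. Without vehicle replicate 1 it was 3.93% (1.73% higher and 2.2% lower), and there 1 of the 31 genes was called, Fnip1.

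The log2 fold changes of the 31 genes ran from -0.20 to 0.30, with a median of -0.03, and the median over all genes was 0.004. They were positive in 11 of the 31 genes (35.5%) and negative in 20. Of all genes 50.8% were positive, the share to set beside the sign counts below. Without its sign, the median log2 fold change was 0.05 for the 31 genes and 0.11 for all genes. The median SE was also smaller, 0.076 for the 31 genes and 0.114 for all genes, so these unsigned medians are not directly comparable. The 95% interval, which like the p-values covers only the scatter of these libraries, lay within a 1.25-fold change in either direction for 26 of the 31, within 1.5-fold for 30 and within 2.0-fold for 31. Together the 31 genes took 1.0% of all counts, at a sum of 9658, 10207 and 10187 CPM in BCAA libraries, against 10168, 10023 and 9860.3 CPM in vehicle libraries, and the groups overlap.

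**Figure D1:**
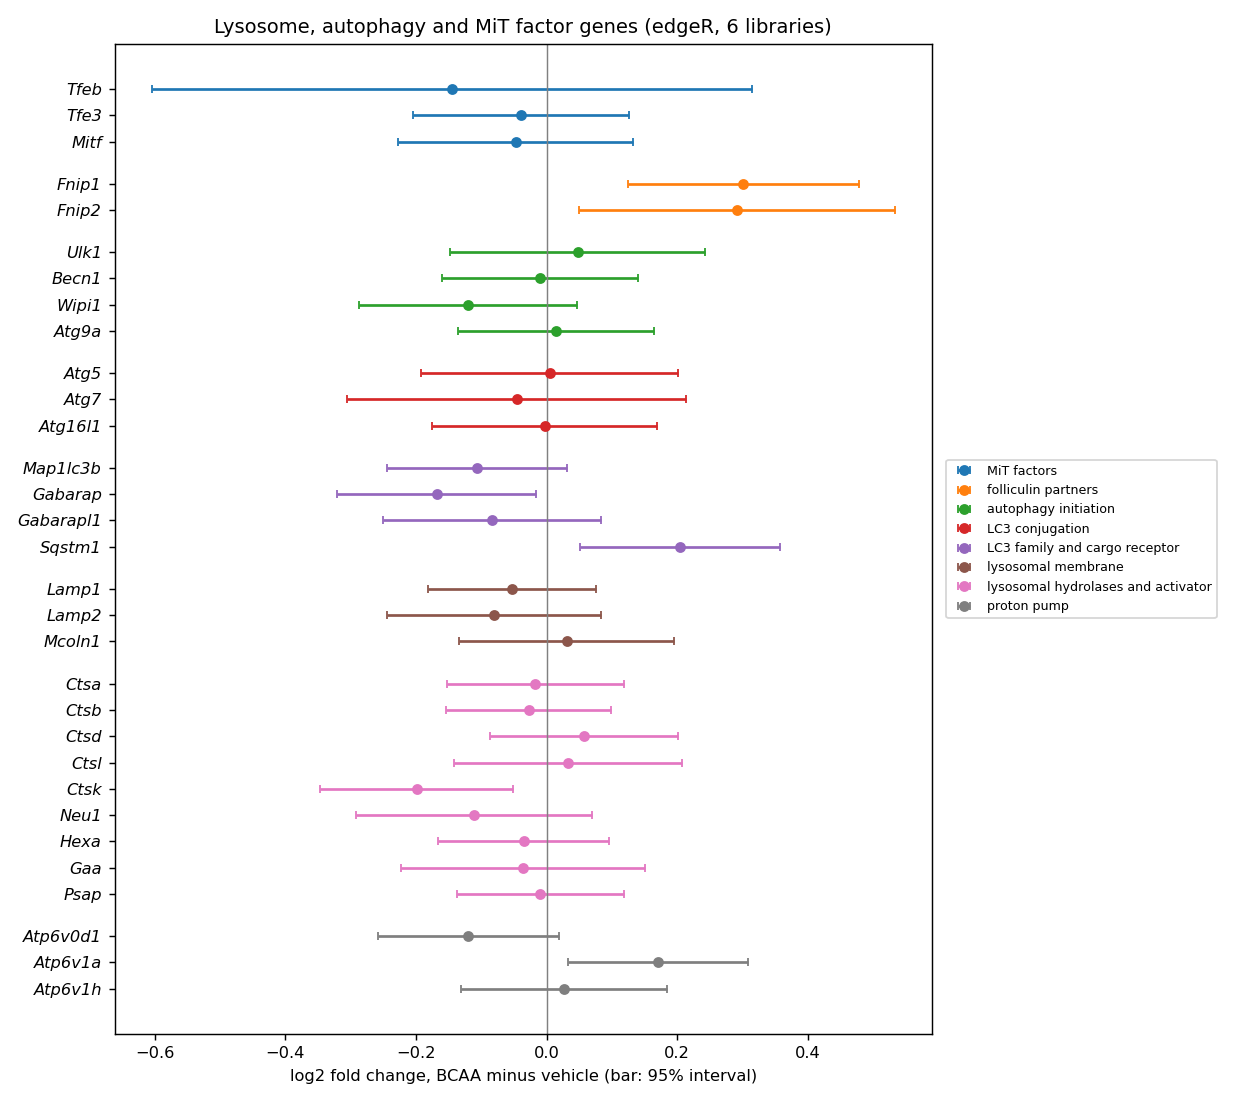
Log2 fold change of each of the 31 genes, BCAA minus vehicle (horizontal axis), with its 95% interval, from the edgeR fit on 6 libraries, by role. Fnip1 and Fnip2 lie farthest to the right, at 0.30 and 0.29, and the other genes lie between -0.20 and 0.20.

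None of the MiT factor transcripts passed the test, and the groups overlapped in each. Tfeb, the factor most closely tied to lysosome formation, was low, at 6.21, 4.94 and 3.60 CPM in BCAA libraries, against 4.66, 5.52 and 6.27 CPM in vehicle libraries. The groups overlap, and its 95% interval, -0.61 to 0.31 around a log2 fold change of -0.15, was the widest of the 31 (edgeR adjusted p = 0.84). Without BCAA replicate 3, its lowest library, the log2 fold change was 0.02. Tfe3, its close relative, was at 44.7, 44.3 and 43.5 CPM in BCAA libraries, against 44.6, 45.1 and 46.6 CPM in vehicle libraries. Its 6 libraries lay within 1.07-fold of each other (log2 fold change -0.04, SE 0.08). Mitf, best known from pigment cells and osteoclasts, was at 41.8, 38.4 and 41.0 CPM in BCAA libraries, against 43.4, 39.5 and 42.3 CPM in vehicle libraries, with overlapping groups (log2 fold change -0.05, SE 0.08). Tfec, the remaining family member, taken from a wider list of the pathway, averaged 4.78 ± 0.549 CPM in BCAA libraries, against 5.24 ± 1.11 CPM in vehicle libraries, and did not pass.

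The folliculin partners had the largest log2 fold changes of the 31 genes, both positive. Fnip1 was at 86.1, 74.8 and 74.3 CPM in BCAA libraries, against 67.7, 60.9 and 62.2 CPM in vehicle libraries. All BCAA libraries lay above all vehicle libraries, with BCAA replicate 1 highest. Fnip1 averaged 78.4 ± 6.65 CPM in BCAA libraries, against 63.6 ± 3.62 CPM in vehicle libraries, a ratio of 1.23 (log2 fold change 0.30, SE 0.08; edgeR adjusted p = 0.15). Without vehicle replicate 1 the log2 fold change was 0.35 with an edgeR adjusted p of 0.011, in a range of 0.011 to 0.52 over 13 alternatives. Fnip2 was at 34.4, 27.4 and 27.6 CPM in BCAA libraries, against 22.3, 25.3 and 25.5 CPM in vehicle libraries. Again the groups did not overlap and BCAA replicate 1 was highest, with the other BCAA libraries only a little above the vehicle libraries. Its log2 fold change was 0.29 (SE 0.11; edgeR adjusted p = 0.33), and 0.17 without BCAA replicate 1.

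Flcn, folliculin itself, and Rragc, the Rag GTPase it acts on, are on the wider list. Flcn was at 94.0, 92.2 and 89.1 CPM in BCAA libraries, against 77.2, 83.6 and 84.5 CPM in vehicle libraries (log2 fold change 0.17, SE 0.07; edgeR adjusted p = 0.38). Rragc was at 140.1, 154 and 148 CPM in BCAA libraries, against 134, 124 and 134 CPM in vehicle libraries (log2 fold change 0.17, SE 0.07; edgeR adjusted p = 0.33). In both genes every BCAA library lay above every vehicle library, and neither passed the threshold. Rragd, which encodes the relative of RagC, averaged 3.35 ± 0.391 CPM in BCAA libraries, against 2.70 ± 0.868 CPM in vehicle libraries, and its groups overlapped. Rraga, which encodes the partner subunit, averaged 121 ± 3.84 CPM in BCAA libraries, against 126 ± 5.14 CPM in vehicle libraries, also with overlap. Over Fnip1, Fnip2 and these 4 genes 5 of 6 log2 fold changes were positive, with a median of 0.23, and none was called.

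**Figure D2:**
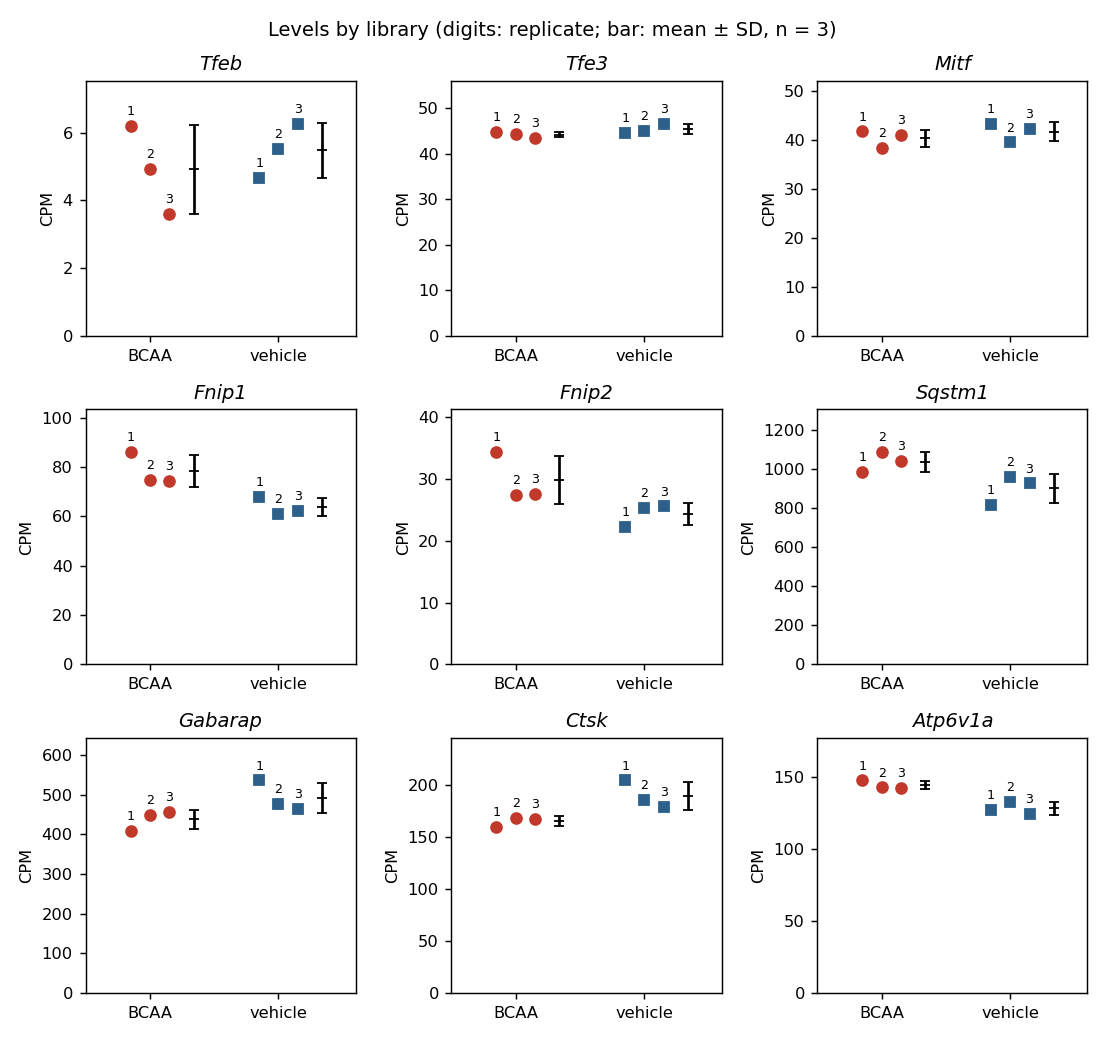
CPM in each library (vertical axes start at 0) for the 3 MiT factors and the 6 genes with an unadjusted p under 0.05, BCAA libraries left and vehicle libraries right, with mean ± SD (n = 3). The groups overlap for Tfeb, Tfe3 and Mitf and do not overlap for the other 6.

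Of the genes that start autophagy none passed the test. Wipi1, which encodes a reader of the lipid that marks the forming membrane, was at 57.9, 55.3 and 59.7 CPM in BCAA libraries, against 67.0, 60.0 and 60.9 CPM in vehicle libraries. The groups were separated by a narrow margin (log2 fold change -0.12, SE 0.08; edgeR adjusted p = 0.58), and the log2 fold change was -0.07 without vehicle replicate 1, the highest library. Ulk1, which encodes the kinase that mTORC1 holds inactive, averaged 44.0 ± 1.46 CPM in BCAA libraries, against 42.5 ± 4.33 CPM in vehicle libraries. Becn1, a subunit gene of the lipid kinase complex, averaged 129.6 ± 4.89 CPM in BCAA libraries, against 131 ± 8.06 CPM in vehicle libraries. Atg9a, which encodes a protein of the vesicles that seed the membrane, averaged 67.3 ± 1.40 CPM in BCAA libraries, against 66.6 ± 0.863 CPM in vehicle libraries. In these last 3 genes the groups overlapped, and Atg9a varied least of the 31 genes, by 1.05-fold between its lowest and highest library.

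Of 15 other genes of this step tested, 9 log2 fold changes were positive and 6 negative, and none was called. Atg2b, which encodes a lipid transfer protein that feeds the growing membrane, was at 68.6, 69.2 and 67.7 CPM in BCAA libraries, against 56.5, 55.9 and 59.6 CPM in vehicle libraries. The BCAA libraries lay close together and above all vehicle libraries (log2 fold change 0.26, SE 0.07; edgeR adjusted p = 0.16). Atg14, which encodes a subunit of the Becn1 complex, averaged 24.4 ± 1.68 CPM in BCAA libraries, against 21.7 ± 1.22 CPM in vehicle libraries, with overlapping groups.

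None of the genes for enzymes that attach LC3 proteins to membranes passed the test. Atg7, which encodes the activating enzyme, was at 17.4, 17.5 and 17.7 CPM in BCAA libraries, against 15.5, 18.3 and 20.5 CPM in vehicle libraries. All BCAA libraries lay inside the range of the vehicle libraries (log2 fold change -0.05, SE 0.12; edgeR adjusted p = 0.92). Atg5, part of the complex that completes the attachment, averaged 51.7 ± 2.76 CPM in BCAA libraries, against 51.6 ± 5.86 CPM in vehicle libraries. Atg16l1, of the same complex, averaged 57.4 ± 1.75 CPM in BCAA libraries, against 57.5 ± 4.40 CPM in vehicle libraries. Both had overlapping groups. Of 7 other genes of this step tested, 6 log2 fold changes were negative and none was called; those of the LC3-processing proteases Atg4a and Atg4b were -0.25 (SE 0.15) and -0.15 (SE 0.09). Without vehicle replicate 1 that of Atg4a was -0.13, and without vehicle replicate 2 that of Atg4b was -0.09.

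Among the LC3 family, whose proteins coat the autophagic membrane, and the cargo receptor Sqstm1 (p62), which links ubiquitin-tagged cargo to LC3 and is itself degraded by autophagy, the signs differed. Sqstm1 was at 986, 1089 and 1043 CPM in BCAA libraries, against 819, 960.0 and 928 CPM in vehicle libraries. The groups did not overlap, with vehicle replicate 1 lowest (log2 fold change 0.20, SE 0.07; edgeR adjusted p = 0.28), and the log2 fold change was 0.14 without that library. Gabarap was at 409.9, 449 and 456 CPM in BCAA libraries, against 536, 477 and 464 CPM in vehicle libraries. Here BCAA lay below vehicle without overlap, vehicle replicate 1 being highest (log2 fold change -0.17, SE 0.07; edgeR adjusted p = 0.37), and the log2 fold change was -0.10 without it. Map1lc3b averaged 149 ± 5.41 CPM in BCAA libraries, against 160.4 ± 4.57 CPM in vehicle libraries, without overlap. Gabarapl1 averaged 143 ± 10.4 CPM in BCAA libraries, against 152 ± 12.0 CPM in vehicle libraries, with overlap.

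Of 10 other LC3 family and receptor genes tested, 6 log2 fold changes were positive and 4 negative, and none was called. Bnip3, which encodes a receptor for mitochondria, was at 321, 330.1 and 354 CPM in BCAA libraries, against 319, 280.0 and 265 CPM in vehicle libraries. The groups did not overlap, by a narrow margin over vehicle replicate 1 (log2 fold change 0.22, SE 0.08; edgeR adjusted p = 0.27). Without that library the log2 fold change was 0.30 with an edgeR adjusted p of 0.0036, in a range of 0.0036 to 0.55. Map1lc3a was at 115, 122 and 121 CPM in BCAA libraries, against 119, 144 and 138 CPM in vehicle libraries. Its groups overlapped through vehicle replicate 1 (log2 fold change -0.16, SE 0.08; edgeR adjusted p = 0.44), and without it the log2 fold change was -0.24 with an edgeR adjusted p of 0.024, in a range of 0.024 to 0.75.

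**Figure D3:**
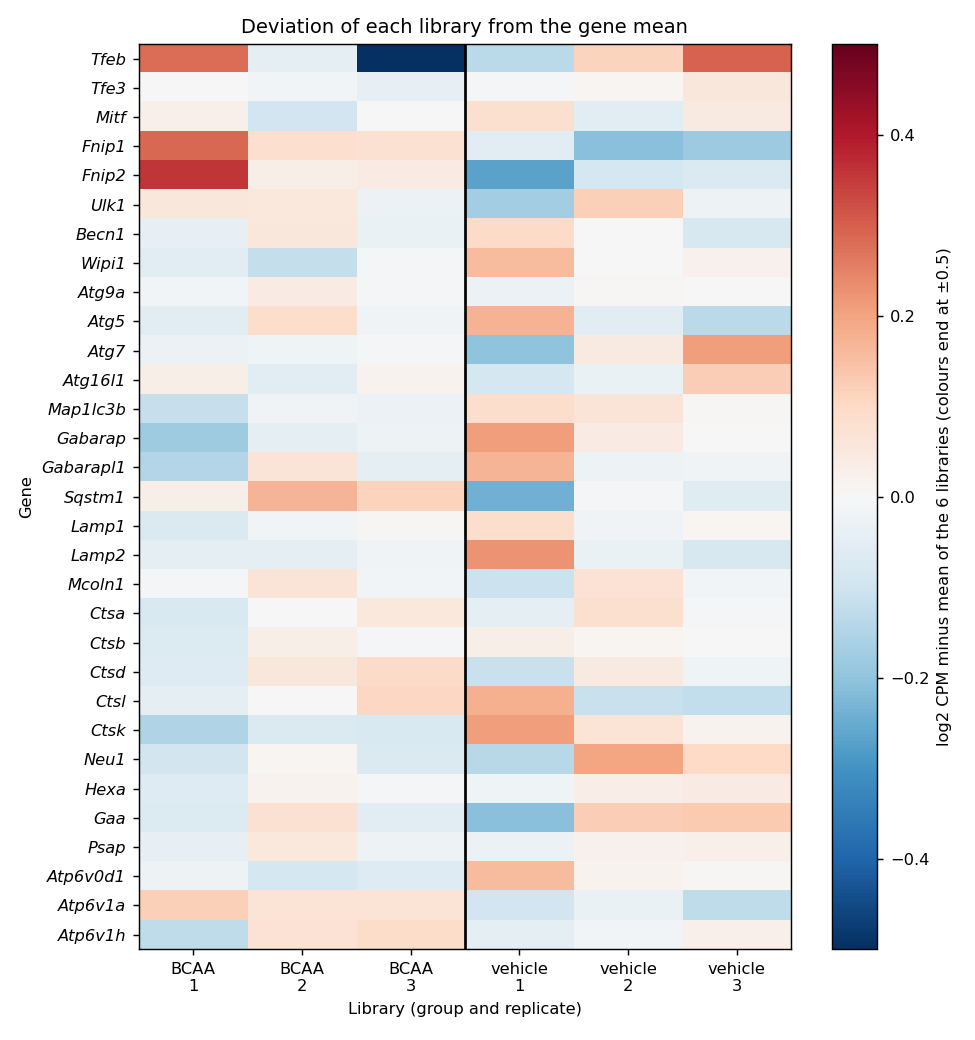
Deviation of log2 CPM from the mean of the 6 libraries (colour, ending at 0.5 in either direction) for each of the 31 genes in each library, BCAA libraries left of vehicle libraries. Vehicle replicate 1 was the highest or lowest library for 22 of the 31 genes, and Fnip1 and Fnip2 are highest in BCAA replicate 1.

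None of the 3 genes for lysosomal membrane proteins passed the test. Lamp2, which encodes a glycoprotein that lines the lysosome, was at 486, 486 and 496 CPM in BCAA libraries, against 586, 491 and 475 CPM in vehicle libraries. Vehicle replicate 1 stood above the other 5 libraries (log2 fold change -0.08, SE 0.08; edgeR adjusted p = 0.73), and the log2 fold change was 0.02 without it. Lamp1, which encodes the companion glycoprotein and has 5 cores in the promoter shown above, averaged 813 ± 22.2 CPM in BCAA libraries, against 844 ± 31.9 CPM in vehicle libraries. Mcoln1, which encodes a calcium channel of the lysosome, averaged 64.2 ± 1.95 CPM in BCAA libraries, against 62.9 ± 3.92 CPM in vehicle libraries. Both had overlapping groups.

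Of 17 other membrane genes tested, 12 log2 fold changes were positive and 5 negative, with a median of 0.12, and none was called. Ctns, the cystine exporter gene, was at 36.6, 36.5 and 41.1 CPM in BCAA libraries, against 32.5, 32.6 and 32.5 CPM in vehicle libraries. The vehicle libraries were almost equal and below all BCAA libraries (log2 fold change 0.22, SE 0.09; edgeR adjusted p = 0.34). Npc1, which encodes a cholesterol transporter, averaged 75.7 ± 4.15 CPM in BCAA libraries, against 67.4 ± 2.05 CPM in vehicle libraries, likewise without overlap (edgeR adjusted p = 0.4).

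Among the hydrolases and their activator, Ctsk, which encodes a cathepsin that cuts collagen, was at 159, 168 and 167 CPM in BCAA libraries, against 204, 185 and 178 CPM in vehicle libraries. All BCAA libraries lay below all vehicle libraries, and vehicle replicate 1 was highest (log2 fold change -0.20, SE 0.07; edgeR adjusted p = 0.28). Without that library the log2 fold change was -0.14. The other cathepsin genes among the 31 had overlapping groups. Ctsb averaged 1073 ± 37.3 CPM in BCAA libraries, against 1093 ± 10.1 CPM in vehicle libraries. Ctsl averaged 1292 ± 69.0 CPM in BCAA libraries, against 1263 ± 154 CPM in vehicle libraries. Ctsd averaged 880.4 ± 50.7 CPM in BCAA libraries, against 846 ± 45.8 CPM in vehicle libraries. These encode the main protein-cutting enzymes of the lysosome. Ctsa, which encodes a carboxypeptidase that also protects other hydrolases, averaged 591 ± 26.5 CPM in BCAA libraries, against 598 ± 27.4 CPM in vehicle libraries.

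The genes for sugar-cutting enzymes overlapped between the groups as well. Neu1, a sialidase, averaged 110.2 ± 4.08 CPM in BCAA libraries, against 119 ± 13.8 CPM in vehicle libraries (log2 fold change -0.11, SE 0.08; edgeR adjusted p = 0.65), and its log2 fold change was -0.20 without vehicle replicate 1, its lowest library. Gaa, which breaks down glycogen, averaged 221 ± 12.5 CPM in BCAA libraries, against 226 ± 29.3 CPM in vehicle libraries. Hexa, a hexosaminidase subunit, averaged 221 ± 6.65 CPM in BCAA libraries, against 226 ± 5.30 CPM in vehicle libraries. Psap, the precursor of proteins that present lipids to hydrolases, averaged 1188 ± 41.3 CPM in BCAA libraries, against 1196 ± 25.7 CPM in vehicle libraries, with overlap. Of the 9 genes of this role, 8 had overlapping groups.

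Of 39 other hydrolase genes tested, 15 log2 fold changes were positive and 24 negative, and edgeR called none. Smpd1, acid sphingomyelinase, was at 427, 460.1 and 454 CPM in BCAA libraries, against 373, 382 and 371 CPM in vehicle libraries. Every BCAA library lay above every vehicle library (log2 fold change 0.25, SE 0.06; edgeR adjusted p = 0.1). The adjusted p was 0.022 with DESeq2 and 0.0097 with edgeR without vehicle replicate 1, in a range of 0.0097 to 0.4. Ctsh, a cathepsin that trims peptides from their amino end, was at 363, 377 and 384 CPM in BCAA libraries, against 476, 429 and 436 CPM in vehicle libraries. Every BCAA library lay below every vehicle library (log2 fold change -0.25, SE 0.06; edgeR adjusted p = 0.12). The adjusted p was 0.034 with DESeq2 and 0.025 with edgeR without vehicle replicate 1, in a range of 0.025 to 0.41.

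The 3 proton pump genes among the 31 lay on both sides of 0. Atp6v1a, which encodes the subunit that splits ATP, was at 148, 143 and 143 CPM in BCAA libraries, against 127, 133 and 125 CPM in vehicle libraries. All BCAA libraries lay above all vehicle libraries (log2 fold change 0.17, SE 0.06; edgeR adjusted p = 0.32). Atp6v0d1, a subunit at the membrane, lay lower in every BCAA library. It averaged 239 ± 5.19 CPM in BCAA libraries, against 259.7 ± 15.5 CPM in vehicle libraries (log2 fold change -0.12, SE 0.07; edgeR adjusted p = 0.49), and its log2 fold change was -0.07 without vehicle replicate 1, its highest library. Atp6v1h, a regulatory subunit, averaged 133 ± 10.9 CPM in BCAA libraries, against 131 ± 3.45 CPM in vehicle libraries, with overlap.

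Of 17 other pump genes tested, 10 log2 fold changes were positive and 7 negative, and none was called. The lowest was that of Atp6v0d2, a gene named after its values were seen, at -0.56 (SE 0.25, edgeR adjusted p = 0.42). Its groups overlapped, and it rested on 29 to 60 reads per library. Atp6ap2, an accessory subunit, was at 131, 131 and 148 CPM in BCAA libraries, against 117, 124 and 121 CPM in vehicle libraries (log2 fold change 0.18, SE 0.07; edgeR adjusted p = 0.35), and its log2 fold change was 0.12 without BCAA replicate 3. Atp6v0b, part of the proton-carrying ring, was at 279.8, 299 and 291 CPM in BCAA libraries, against 222, 262 and 277 CPM in vehicle libraries (log2 fold change 0.19, SE 0.08; edgeR adjusted p = 0.35), and its log2 fold change was 0.11 without vehicle replicate 1. Neither Atp6ap2 nor Atp6v0b overlapped between the groups.

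**Figure D4:**
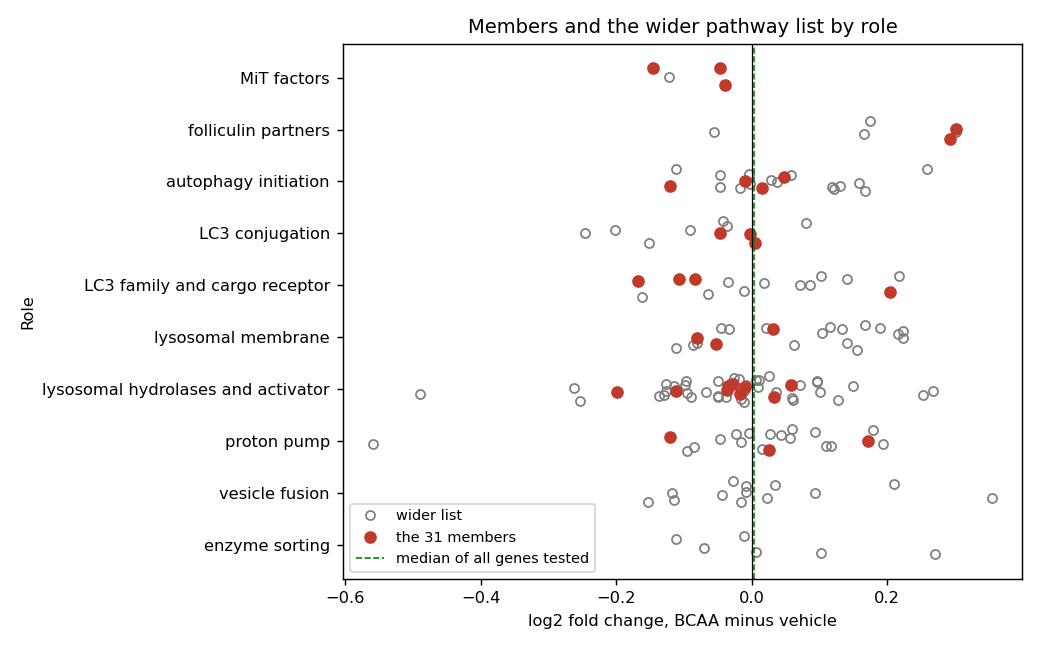
Log2 fold change, BCAA minus vehicle, for the 31 genes (filled) and 129 other genes of the pathway (open) by role, with the median of all genes tested as a dashed line. Most roles spread to both sides of 0, the 4 MiT factors are all slightly below it, and 5 of 6 genes of the folliculin row are above it.

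Over the whole wider list of 136 lysosome and autophagy genes, 134 were found and 129 tested, and edgeR called 0. Their log2 fold changes ran from -0.56 to 0.35. At an unadjusted p under 0.05 there were 16 of 129 (12.4%), 12 higher and 4 lower with BCAA, near the 11.8% of all genes. Groups did not overlap in 26 (20.2%), against 18.1% of all genes. BCAA lay higher in 20 of them (15.5%, against 9.29% of all genes) and lower in 6 (4.65%, against 8.76%). DESeq2 called 2, Smpd1 higher and Ctsh lower, where it called 1.59% of all genes with an adjusted p. Without vehicle replicate 1 edgeR called 5 of 130 (3.85%), near the 3.93% of all genes in that fit: Bnip3, Ctsc and Smpd1 higher, Map1lc3a and Ctsh lower. Ctsc, which encodes a dipeptidyl peptidase and was chosen after its values were seen, averaged 76.9 ± 4.73 CPM in BCAA libraries, against 63.9 ± 2.68 CPM in vehicle libraries (edgeR adjusted p = 0.17 over 6 libraries, 0.02 without that one, range 0.02 to 0.45).

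Vesicle fusion and enzyme sorting were represented only on the wider list. Epg5, which encodes a tether of autophagic vesicles to lysosomes, was at 26.3, 21.7 and 18.4 CPM in BCAA libraries, against 17.8, 18.1 and 16.1 CPM in vehicle libraries (log2 fold change 0.35, SE 0.13; edgeR adjusted p = 0.31), without overlap. Without BCAA replicate 1, its highest library, the log2 fold change was 0.21. Tecpr1, another tether, averaged 134 ± 12.9 CPM in BCAA libraries, against 116 ± 20.6 CPM in vehicle libraries, with overlap. Igf2r, the large mannose 6-phosphate receptor that carries enzymes to lysosomes, was at 334, 305 and 287 CPM in BCAA libraries, against 223, 258 and 286 CPM in vehicle libraries. The groups did not overlap, by a narrow margin, and vehicle replicate 1 was lowest (log2 fold change 0.27, SE 0.09; edgeR adjusted p = 0.23). Gnptab, which helps make the mannose 6-phosphate tag, averaged 106 ± 6.60 CPM in BCAA libraries, against 98.5 ± 1.05 CPM in vehicle libraries, with overlap. Calcoco1, Retreg1, M6pr and Atp6v1g2 were each under 1 CPM in every library and were not tested.

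**Figure D5:**
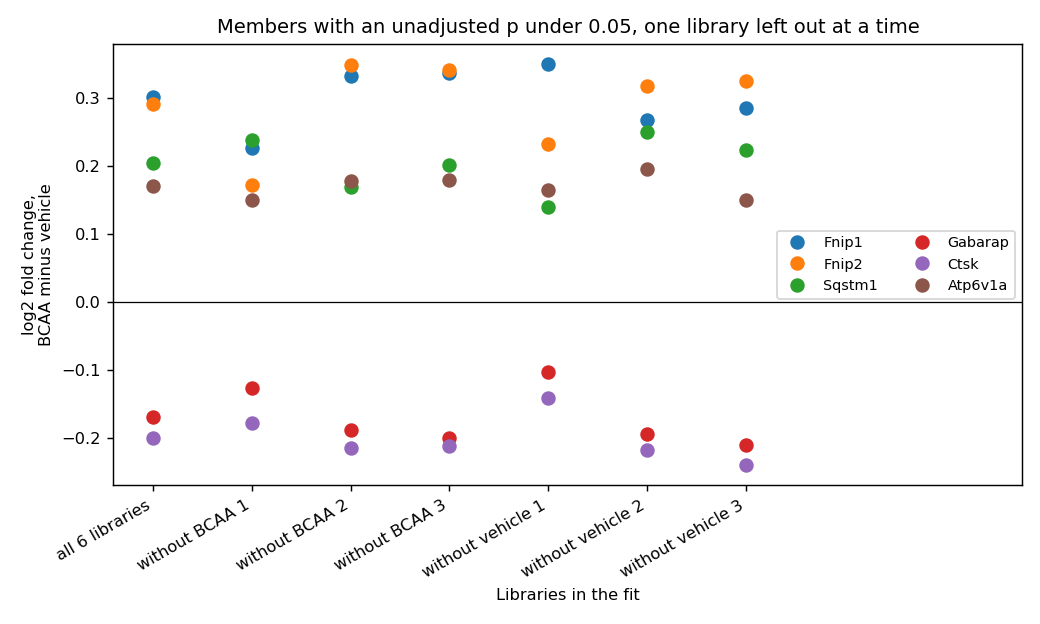
Log2 fold change, BCAA minus vehicle (vertical axis), of the 6 genes with an unadjusted p under 0.05, in the fit on all 6 libraries and in fits that leave out 1 library each (horizontal axis). The sign of all 6 is the same in each fit, and Fnip2 lies at 0.17 without BCAA replicate 1.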

How the data were processed

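RNA was extracted with TRIzol and made into NEBNext Ultra libraries, per the labels' protocols. The authors deposited raw counts per gene and library. The submitters' processing notes name Trimmomatic, FastQC, STAR, HTSeq and the build rn6. No source used here gives versions, annotation or strand setting, so counts of overlapping genes and near-identical copies are uncertain. Libraries were grouped by title, and columns were matched to titles.

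The 12298 genes passing edgeR's filterByExpr (minimum count 10, minimum total 15) were fitted together with edgeR 4.0.16 in R 4.3.3 (TMM scaling, robust quasi-likelihood test, group as the only term, 6 libraries). P-values were adjusted over all of them (Benjamini-Hochberg), and genes under 0.05 were called. CPM uses TMM-scaled library sizes and is not per length, so levels are not compared between genes. The SE is the size of the log2 fold change divided by the square root of F. The fits were also run on simulated counts with known changes, and the outcome is not used for any statement here. Alternatives were DESeq2 1.42.0, other scaling, filters and estimation, the replicate number as a block, and each library left out. Counts of every pair of libraries differed by more than sampling noise (chi-square per degree of freedom 2.65 to 18.1).

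The 31 genes, the wider list of 136 (3 found under another symbol) and the markers were chosen with earlier results of these data known. Values in every library are given for the MiT factors, genes with an unadjusted p under 0.05 and the gene with the smallest p of each role. Of the wider list, called genes and up to 2 genes per role with the smallest p are named, plus genes that the text marks.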

Additional observations from a re-analysis of the deposited data

How the results depend on the processing

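None of the 31 genes was called under the settings that kept all 6 libraries. Leaving out 1 library gave 0 to 1 call, that of Fnip1 without vehicle replicate 1. The median log2 fold change of the 31 genes was -0.027, between -0.042 and -0.011 with a library left out, and 0.002 without scaling factors, where the median of all genes was 0.033. Of the 31 genes, 16 kept their sign in all 13 alternatives, among them all 6 with an unadjusted p under 0.05. For the wider list DESeq2 called 2 genes and leaving out 1 library called 0 to 5, the most without vehicle replicate 1, where 3.85% of the list and 3.93% of all genes were called. Its median was -0.002, between -0.002 and 0.025 with a library left out, and 0.027 without scaling factors. The cause was not tested. Replicate numbers were not taken as pairs, though whether they mark pairs or batches cannot be told from these libraries. Deviations from the group means correlated at -0.066, 0.11 and -0.15 for numbers 1, 2 and 3. Unlike numbers reached 0.15 (BCAA 3 with vehicle 1) and 0.14 (BCAA 1 with vehicle 3). Depth was alike within a number: 14482260 (BCAA) and 14484051 (vehicle) counts for 1, 15654060 and 15739731 for 2, 12802663 and 12725344 for 3. With the replicate block 0 of the 31 genes and 0 of the wider list were called, with medians of -0.028 and 0.0, and 6 genes in all instead of 28. Tfeb, under 7 CPM, was the least precise of the 31 genes.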
